A study of Mus musculus with 4 samples.

Results

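The 10 genes described here encode transcription factors that direct blood lineages, namely *Gata1*, *Gata2*, *Tal1*, *Lmo2*, *Runx1*, *Myb*, *Fli1*, *Spi1*, *Ikzf1* and *Sox6*. They were selected by name out of the 53465 genes of the expression table, at a time when their levels in these libraries were already known, and all 10 were found. The cells were cultured mouse female germline stem cells (FGSCs), labelled as germ stem cells from ovary. In the control group (shNC, n = 2 libraries) the cells carried a control shRNA, and in the knockdown group (shNAT10, n = 2) an shRNA against *Nat10*, both brought in by lentivirus. *Nat10* encodes the enzyme that acetylates cytidine in RNA. Infected cells were selected with puromycin or blasticidin S, and mice of the study had a C57BL/6J background. The animals from which the cultured cells came, and their age, are not given in the sources used here. The comparison asks which transcripts differ in level once *Nat10* is reduced. Levels are FPKM, that is fragments per kilobase of exon scaled to a total for each library.

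Blood cells arise through a small set of transcription factors that bind DNA together. A core complex is built from a GATA factor, the helix-loop-helix protein TAL1 with an E protein partner, the bridging protein LMO2 and its binding partner LDB1, and it sits on DNA where a GATA site lies near an E-box. RUNX1, MYB and the ETS proteins FLI1 and SPI1 act at many of the same enhancers. GATA2 serves stem and progenitor cells and mast cells, GATA1 drives red cells, megakaryocytes and mast cells, SPI1 drives myeloid cells and IKZF1 lymphoid cells, while SOX6 acts in red cell maturation and, outside blood, in cartilage.

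To show the short DNA words that these families recognise, and where they stand at the factors' own genes, the promoter windows of the genes were searched on both strands. A window covers 250 bases before and 50 bases after an annotated RefSeq transcription start (GRCm38.p6), and 7 of the 10 genes had 16 windows among the 32851 of the table. *Spi1*, *Lmo2* and *Fli1* had no entry. The GATA words searched were AGATAA and its variants (AGATAG first, then TGATAA and finally TGATAG), which occurred in 3 of the 16 windows, against 29.8% of all windows. The E-box word, taken as CAGATG or else CAGCTG, occurred in 5 of 16, against 30.6%, the RUNX word TGTGGT in 3 of 16, against 16.8%, and the ETS word CCGGAA in 1 of 16, against 14.9%. No matched words overlapped within the windows shown next, and a match is a description of the sequence rather than a binding site. FPKM is a value per gene, so which of these starts the cells use was not measured.

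The 4 windows shown are read 5′ to 3′ along the gene, with every matched word in capitals, and were chosen to show windows with none, 1 and several kinds of the words. They are the single *Gata1* window (chrX:7967861-7968160, minus strand), the downstream *Gata2* window (chr6:88198414-88198713, plus strand), the upstream *Tal1* window (chr4:115056176-115056475, plus strand) and the fourth of 6 *Sox6* windows (chr7:115846091-115846390, minus strand).
Gata1: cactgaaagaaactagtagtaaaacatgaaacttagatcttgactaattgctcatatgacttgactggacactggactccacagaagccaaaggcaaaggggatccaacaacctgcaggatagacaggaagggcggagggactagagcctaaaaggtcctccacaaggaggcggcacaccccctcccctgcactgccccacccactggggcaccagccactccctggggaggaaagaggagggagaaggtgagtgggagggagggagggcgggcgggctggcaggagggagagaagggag
Gata2: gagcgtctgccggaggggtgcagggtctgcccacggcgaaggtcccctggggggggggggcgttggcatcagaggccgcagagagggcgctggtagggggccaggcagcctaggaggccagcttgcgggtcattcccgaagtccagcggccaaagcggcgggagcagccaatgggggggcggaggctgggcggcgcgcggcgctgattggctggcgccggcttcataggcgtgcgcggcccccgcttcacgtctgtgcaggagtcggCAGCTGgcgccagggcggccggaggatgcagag
Tal1: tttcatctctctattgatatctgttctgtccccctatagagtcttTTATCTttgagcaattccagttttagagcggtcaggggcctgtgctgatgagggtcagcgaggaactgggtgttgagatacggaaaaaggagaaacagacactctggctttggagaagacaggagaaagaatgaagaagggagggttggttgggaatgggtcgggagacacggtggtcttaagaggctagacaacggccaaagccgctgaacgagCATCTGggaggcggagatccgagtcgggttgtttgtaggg
Sox6: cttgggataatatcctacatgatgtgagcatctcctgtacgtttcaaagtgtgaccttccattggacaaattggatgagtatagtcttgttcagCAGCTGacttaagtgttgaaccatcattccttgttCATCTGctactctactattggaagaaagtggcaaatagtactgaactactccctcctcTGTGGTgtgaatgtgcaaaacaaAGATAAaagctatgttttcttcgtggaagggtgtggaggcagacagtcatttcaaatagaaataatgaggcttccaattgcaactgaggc

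None of the words stood in the *Gata1* window. The *Gata2* window held 1 E-box word, in the bases after the start. In the *Tal1* window a GATA word lay 205 bases before the start, read on the other strand, with an E-box word just after the start. The *Sox6* window held 2 E-box words at 156 and 121 bases, a RUNX word at 63 bases and a GATA word at 40 bases before the start.

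The libraries held between 11057921 and 14902434 fragments on genes, recovered as whole numbers from the FPKM, and the precision of low genes rests on such counts. The total behind the FPKM scaling, recovered in the same way, was 11745625 and 11871404 in shNC, below the fragments on genes of those libraries (14902434 and 13029100). In shNAT10 it was 12551791 and 15330624, above their fragments on genes (11057921 and 13771490). Which fragments the authors counted in that total is not given in the sources used here. *Nat10* itself, on chr2:103721256-103761270, stood at 7.79 and 5.42 FPKM in shNC, against 2.95 and 3.04 in shNAT10, so the library labels and the targeted transcript go in the same direction. Loci grouped as related to rRNA took 48.0% and 37.9% of fragments in shNC, against 26.3% and 28.2% in shNAT10. The set was fixed by name and was not rRNA alone. It held *Gm26917* and *Gm42418*, lncRNAs that the paper reports as reduced in shNAT10, and also *Rn7sk*, *Rmrp*, *Rpph1* and *Lars2*. The part of the difference in this share in the values of the 10 genes was examined by 1 alternative scaling only, which left out the same set.

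The labelled cell type was compared with lists of marker genes. Of 12 germline markers, *Dazl*, *Pou5f1*, *Dppa3*, *Tfap2c* and *Sall4* were at 0 in all 4 libraries, and *Ddx4*, the germ cell RNA helicase, was at 0 in 3 libraries and at 0.053 FPKM in shNAT10-1. *Prdm1* and *Nanos3* did not exceed 0.184 FPKM in any library. *Ifitm3*, which many cell types express, made up nearly all of the list's sum, at 9.29 and 22.2 FPKM in shNC, against 27.1 and 33.6 in shNAT10. A gene is called here at a fold change over 1.2 with an unadjusted p of at most 0.05, by limma unless another tool is named. *Ifitm3* was not called by limma but was called higher in 5 alternatives, limma-voom and the fit without shNC-2 among them. The defining germline genes were thus absent or near 0 in these libraries, and these RNA levels go against the label on this point. The paper gives other evidence for its FGSCs, namely RT-PCR of *Oct4* (*Pou5f1*), *Ddx4*, *Fragilis* (*Ifitm3*) and *Blimp1* (*Prdm1*). It also shows immunofluorescence of the proteins DDX4 and OCT4. All 10 pan-leukocyte genes passed the filter on low values, and *Ptprc*, the common leukocyte antigen CD45, was at 15.3 to 15.5 FPKM in every library. *Coro1a*, an actin-binding protein of leukocytes, was at 137 to 164 FPKM with overlapping groups. The summed level of the 10 genes was 629 and 691 FPKM in shNC, against 532 and 546 in shNAT10, as drawn in the plot of marker sums.

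**Figure D1:**
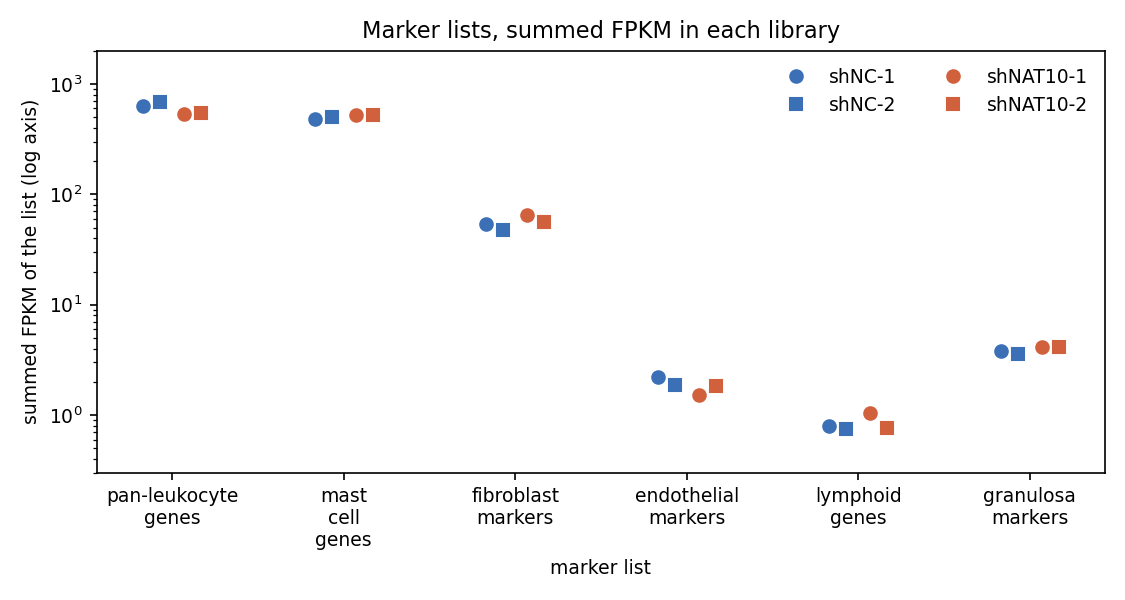
Summed FPKM (log axis) of 6 marker lists, with 1 point for each of the 4 libraries (blue shNC, orange shNAT10, circles replicate 1, squares replicate 2). The pan-leukocyte and mast cell sums lie between 481 and 691 FPKM, whereas the endothelial, lymphoid and granulosa sums lie between 0.75 and 4.15.

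Beside the leukocyte genes, mast cell genes summed to 481 and 502 FPKM in shNC, against 528 and 525 in shNAT10, with *Cpa3*, the mast cell carboxypeptidase, as the most abundant. *Fcer1a* and *Tpsb2*, which define mature mast cells, were at 0 in all libraries. Fibroblast markers summed to 54.4 and 47.5 FPKM in shNC, against 65.3 and 55.8 in shNAT10, with granulosa markers between 3.59 and 4.15, and endothelial markers between 1.51 and 2.24. Of 8 fibroblast markers tested, 3 were called higher in shNAT10, against 8.41% of all genes tested, and 0 had an adjusted p under 0.05. The 3 were *Pdgfra* (6.74 and 5.08 against 10.8 and 10.2 FPKM), *Thy1* (2.42 and 2.42 against 4.36 and 3.99) and *Col3a1* (0.677 and 0.575 against 1.16 and 1.51), and their part in the levels of the factors was not tested. *Dcn*, the matrix proteoglycan decorin, was the most abundant, at 36.2 to 45.9 FPKM with overlapping groups and no call. Most of the granulosa sum came from *Inhba*, an activin subunit, at 2.68 and 2.33 FPKM in shNC, against 3.27 and 3.33 in shNAT10. *Hsd17b1* was at 0.585 to 1.01 FPKM and *Wt1* at 0.137 and 0.231 FPKM in shNC, against 0.051 and 0.011 in shNAT10, where *Wt1* had 1 to 17 fragments per library over both groups. Limma called 0 granulosa markers, and 0 reached an unadjusted p under 0.05, whereas limma-voom called *Inhba* higher and *Wt1* lower, and each was called in 4 alternatives in all, the fit without shNC-1 among them. *Foxl2* and *Fshr* were at 0. Most of the endothelial sum came from *Egfl7*, at 2.02 and 1.55 FPKM in shNC, against 1.16 and 1.62 in shNAT10, while *Pecam1* and *Esam* did not exceed 0.222 FPKM in any library and *Emcn* and *Cldn5* were at 0. In bulk RNA, fewer cells of a type and less RNA per cell cannot be told apart, and this holds for every level given here.

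In shNC, the 10 factors spanned more than 2 orders of magnitude on the FPKM scale. The order of the group means was *Fli1* at 44.7 ± 0.522 FPKM (SD, n = 2), *Gata2* at 40.1 ± 2.05, *Ikzf1* at 7.22 ± 0.790, *Spi1* at 5.56 ± 1.2, *Tal1* at 3.97 ± 0.194, *Lmo2* at 3.83 ± 0.966, *Runx1* at 3.46 ± 0.176, *Myb* at 2.81 ± 0.234, *Sox6* at 2.45 ± 0.00979 and *Gata1* at 0.365 ± 0.0273. Neighbours in this order overlapped in their shNC values only for *Tal1* with *Lmo2* and for *Lmo2* with *Runx1*. In shNAT10, *Myb* at 4.18 ± 0.612 FPKM stood above *Lmo2* at 3.43 ± 0.0386 and *Runx1* at 3.32 ± 0.211, without overlap. *Fli1* and *Gata2* together made up 75.1% and 73.1% of the summed FPKM of the 10 genes in shNC and 70.6% and 70.8% in shNAT10.

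**Figure D2:**
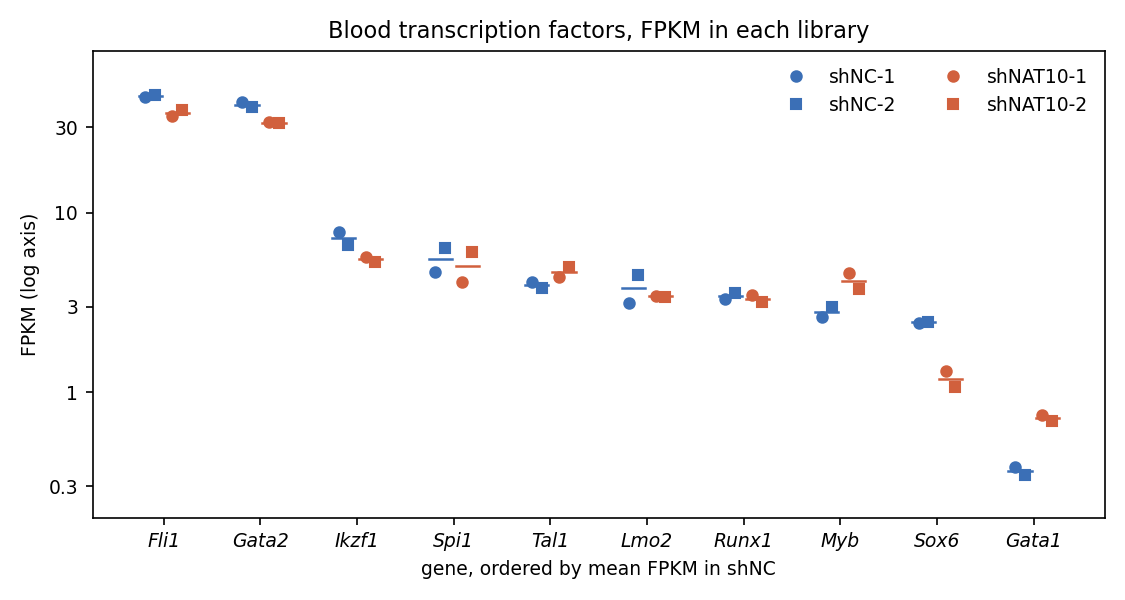
FPKM (log axis) of the 10 transcription factors in each of the 4 libraries, ordered by the shNC mean; points are libraries and short lines are group means (blue shNC, orange shNAT10). *Fli1* and *Gata2* lie above 30 FPKM in every library, *Gata1* lies below 1, and the groups stand clearly apart for *Sox6*. The groups of *Gata1* do not overlap but rest on only 10 to 26 fragments per library.

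Among the 10 factors, 2 were past the threshold as higher in shNAT10 (*Gata1* and *Myb*) and 4 as lower (*Sox6*, *Ikzf1*, *Gata2* and *Fli1*), while *Tal1*, *Lmo2*, *Spi1* and *Runx1* were not. Of the 20116 genes tested, 8.41% were past the same threshold as higher and 7.83% as lower. The list was chosen with this contrast in view, so these counts are a description and nothing is read from them. None of the 10 factors (0 of 10) had a Benjamini-Hochberg adjusted p under 0.05 by limma, 6 of 10 were at an unadjusted p under 0.05, against 16.6% of all genes, and limma-voom on the recovered fragments gave 3 an adjusted p under 0.05, against 7.88% of all genes. Over all genes, limma gave an adjusted p under 0.05 to 0.333% as higher and to 0.104% as lower. Both shNAT10 libraries lay above both shNC libraries for 3 of the 10 factors, against 23.9% of all genes tested, and below them for 4, against 24.1%. The median log2 fold change was -0.13 for the 10 factors and 0.01 for all genes tested.

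The counts depended on scaling and on single libraries. When each library was scaled to an equal FPKM sum that left out rRNA-related loci, the median of all genes moved to 0.07, genes called higher and lower changed from 1691 and 1576 to 2144 and 1137, and of the 4 factors called lower only *Sox6* stayed past the threshold. The log2 fold changes then moved from -0.33 to -0.26 for *Gata2* and from -0.31 to -0.24 for *Fli1*, both just inside a fold of 1.2, and from -0.38 to -0.31 for *Ikzf1*, whose p rose above 0.05. With 1 library left out, 0 or 1 of the factors were past it as higher and between 1 and 3 as lower, with 0 and 1 without shNAT10-1, 1 and 2 without shNAT10-2, and 0 and 3 without either shNC library. *Sox6* passed in every one of its 14 alternatives.

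**Figure D3:**
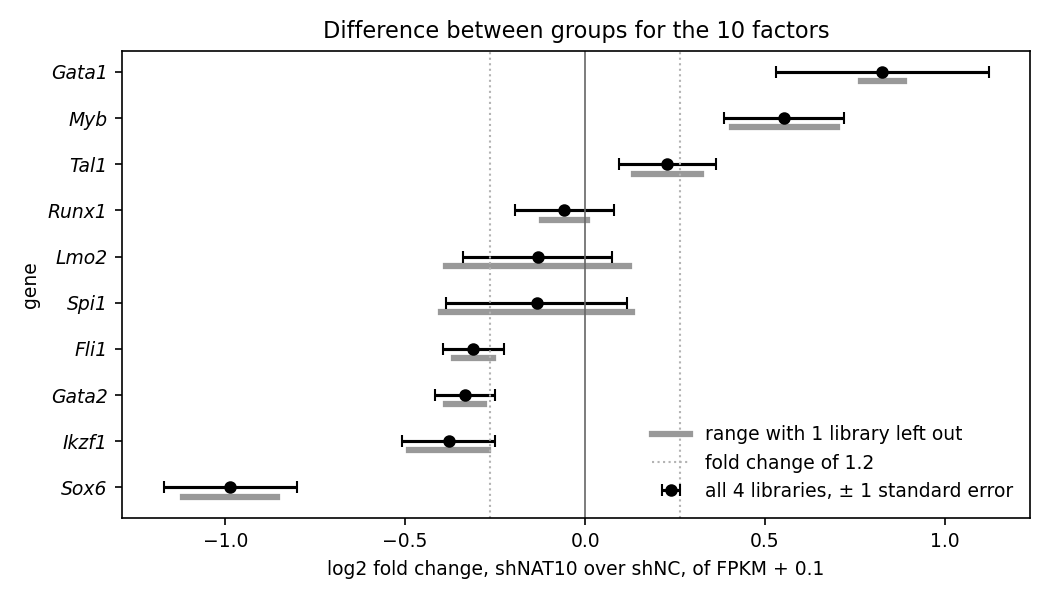
Log2 fold change of FPKM + 0.1, shNAT10 over shNC, for each of the 10 factors, with ± 1 standard error (black) and the range of estimates when 1 library is left out (grey); dotted lines mark a fold change of 1.2. *Sox6* lies lowest at -0.99 and *Gata1* highest at 0.83, and the grey ranges of *Lmo2*, *Spi1* and *Runx1* cross 0.

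The GATA factors stood on opposite sides of 0 in log2 fold change. Positions of genes here and later are those of GENCODE M21 on mm10. *Gata2* (chr6:88193891-88207032, plus strand), the factor of stem and progenitor cells, was at 41.5 and 38.6 FPKM in shNC, against 31.9 and 31.6 FPKM in shNAT10. Both shNAT10 libraries were low and the groups did not overlap. The log2 fold change was -0.33 (standard error 0.08), resting on 2163 to 2634 fragments per library. *Gata2* lost the call under limma without the trend, under scaling to the same total, and without either shNAT10 library, with estimates from -0.39 to -0.28 when 1 library was left out.

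*Gata1* (chrX:7959260-7978071, minus strand), the factor of red cells and megakaryocytes, was the lowest of the 10. Its level was 0.384 and 0.346 FPKM in shNC, against 0.752 and 0.696 FPKM in shNAT10. Both shNAT10 libraries were higher, and the log2 fold change was 0.83 (standard error 0.30). The depth behind these values was small, since *Gata1* had 11 and 10 fragments in shNC and 23 and 26 in shNAT10. The exact Poisson 95% intervals ran from 5.49 to 19.7 and from 4.80 to 18.4 fragments in shNC and from 14.6 to 34.5 and from 17.0 to 38.1 in shNAT10, so they overlapped between groups, and they cover counting error only. *Gata1* kept its call in 5 of 13 alternatives and lost it whenever a library was left out. Its estimate was 0.34 with a pseudocount of 1 and 0.97 with a pseudocount of 0.01.

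The FPKM ratio of *Gata2* to *Gata1* was 108 and 112 in shNC and 42.5 and 45.4 in shNAT10. *Gata2* thus remained far above *Gata1* in every library. Of the other GATA genes listed, *Gata4* was at 1.02 and 0.690 FPKM in shNC, against 0.449 and 0.802 in shNAT10, with overlapping groups and no call. *Gata3* was at 0.240 to 0.402 FPKM, and *Gata5* and *Gata6* were at 0 in all libraries.

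*Tal1* (chr4:115056426-115071755, plus strand) encodes the helix-loop-helix subunit of the complex. It was at 4.10 and 3.83 FPKM in shNC, against 4.37 and 4.98 FPKM in shNAT10, from 199 to 334 fragments. The shNAT10 libraries were both above the shNC libraries, but by little, and the log2 fold change of 0.23 (standard error 0.14) was under the fold of the threshold. *Tal1* passed in 0 of 14 alternatives.

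*Lmo2* (chr2:103957986-103981878, plus strand) encodes the bridge between TAL1 and GATA proteins. Its FPKM was 3.14 and 4.51 in shNC and 3.46 and 3.40 in shNAT10, from 80 to 116 fragments. The shNC libraries lay on both sides of the shNAT10 libraries, so the groups overlapped, and the log2 fold change was -0.13 (standard error 0.21). Its sign depended on shNC-1 and shNC-2: the estimate was -0.39, past the threshold, without shNC-1 and 0.12 without shNC-2.

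Partners and antagonists of the factors, with the ID proteins and the RUNX1 partner *Cbfb* among them, formed a list of 18 genes. In this list 17 genes passed the filter on low values. Of these, 5 were called higher and 2 lower by limma, with a median log2 fold change of 0.32, and 9 higher and 2 lower by limma-voom. Over all genes limma called 8.41% higher and 7.83% lower, and limma-voom 10.1% and 9.34%. *Lyl1*, the close relative of *Tal1*, was more abundant than *Tal1* and stood at 35.0 and 36.6 FPKM in shNC, against 47.3 and 48.8 FPKM in shNAT10 (log2 fold change 0.42, limma adjusted p = 0.124). *Ldb1*, the LIM-domain binding protein, rose by 0.32 on the log2 scale (23.2 and 20.9 against 26.6 and 28.6 FPKM, limma adjusted p = 0.238), and *Ssbp4*, which stabilises LDB1, by 0.60 (limma adjusted p = 0.160).

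The ID proteins, which sequester E proteins and so keep them from TAL1, did not move as a block. *Id1* rose from 22.1 and 20.8 FPKM in shNC to 36.1 and 29.0 FPKM in shNAT10 (log2 fold change 0.59, limma adjusted p = 0.158), and *Id3* rose from 1.09 and 1.93 to 3.51 and 4.26 FPKM (1.35, limma adjusted p = 0.157). *Id2* fell from 23.6 and 36.8 to 14.6 and 16.0 FPKM (-0.94, limma adjusted p = 0.178). *Lmo4*, a LIM-only protein that also binds LDB1, fell from 13.9 and 11.6 to 9.32 and 8.80 FPKM (-0.48, limma adjusted p = 0.195). The main E protein gene *Tcf3* was at 21.6 to 24.5 FPKM with overlapping groups and was not called. *Tcf4*, another E protein gene, was at 0.743 and 0.541 FPKM in shNC, against 1.11 and 1.06 in shNAT10 (log2 fold change 0.68). It was not called by limma but was called higher by limma-voom (limma-voom adjusted p = 0.00312). For *Tcf12*, at 4.76 to 5.67 FPKM, both shNAT10 libraries lay above both shNC libraries, without a call.

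*Runx1* (chr16:92601466-92826149, minus strand), a factor required for the first blood stem cells, was at 3.33 and 3.58 FPKM in shNC, against 3.47 and 3.17 FPKM in shNAT10. The groups overlapped, and the log2 fold change was -0.06 (standard error 0.14), from -0.12 to 0.01 when 1 library was left out. Its FPKM did not return whole fragments with the exon length used here, so no fragments are given. On 106 exon bases it lies opposite *Gm26626*, and use of strand in counting is not given in the sources used here. Its binding partner *Cbfb* was at 3.33 and 5.08 FPKM in shNC, against 6.85 and 4.87 in shNAT10, with overlapping groups and no call by limma, whereas limma-voom called it higher.

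*Myb* (chr10:21124935-21160984, minus strand) encodes a factor that keeps blood progenitors dividing. It was at 2.64 and 2.97 FPKM in shNC, against 4.61 and 3.75 FPKM in shNAT10, from 277 and 315 against 517 and 513 fragments. Both shNAT10 libraries were higher, and the log2 fold change was 0.55 (standard error 0.17). The call was lost without shNAT10-1 and without either shNC library, with estimates from 0.41 to 0.70. On 559 of its 8933 exon bases *Myb* lies opposite *Gm26577*, which was at 1.83 and 1.70 FPKM in shNC, against 2.55 and 2.60 in shNAT10. Without strand, reads of the pair on those shared bases cannot be told apart.

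Both relatives of *Myb* rose as well. *Mybl2*, a cell cycle gene, was at 4.74 and 3.51 FPKM in shNC, against 7.36 and 7.45 FPKM in shNAT10 (log2 fold change 0.84, limma adjusted p = 0.142), and *Mybl1* had a log2 fold change of 0.72 (limma adjusted p = 0.162). Both calls were lost without either shNAT10 library.

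*Fli1* (chr9:32422204-32542861, minus strand), the ETS factor of stem cells and megakaryocytes, was the most abundant of the 10 and exceeded 94.2% of the protein-coding genes tested in mean FPKM. It was at 44.3 and 45.1 FPKM in shNC, against 34.7 and 37.4 FPKM in shNAT10. The shNC libraries lay close together and both shNAT10 libraries lay below them. The log2 fold change was -0.31 (standard error 0.08), from 1519 to 1998 fragments per library. The call held in 9 of 14 alternatives and was lost without shNAT10-1 and without either shNC library, with estimates from -0.36 to -0.26.

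*Spi1* (chr2:91082390-91115756, plus strand) encodes PU.1, the ETS factor of myeloid cells. It was at 4.71 and 6.41 FPKM in shNC, against 4.14 and 6.03 FPKM in shNAT10, from 140 to 249 fragments. In both groups replicate 2 was the higher, and the groups overlapped over most of their range. The log2 fold change of -0.13 (standard error 0.25) was smaller than the log2 difference between replicates, which was 0.44 in shNC and 0.53 in shNAT10. It ran from -0.40 to 0.13 when 1 library was left out, and was above 0 in 2 of 14 alternatives.

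Among the other ETS genes listed, *Erg*, the close relative of *Fli1*, was at 0.172 and 0.559 FPKM in shNC, against 0.598 and 0.621 in shNAT10, without a call by limma except as higher without shNC-2. *Elf1* was at 7.54 to 9.39 FPKM, without a call. *Spic* and *Etv2* were at 0 in all libraries.

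*Ikzf1* (chr11:11685003-11772926, plus strand) encodes Ikaros, a zinc finger factor of lymphoid cells and early progenitors. It was at 7.78 and 6.66 FPKM in shNC, against 5.68 and 5.35 FPKM in shNAT10, from 412 to 528 fragments. Both shNAT10 libraries were below both shNC libraries, and the log2 fold change was -0.38 (standard error 0.13). The call held in 9 of 14 alternatives and was lost without shNC-1 and without either shNAT10 library, with estimates from -0.49 to -0.27.

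Its relative *Ikzf2*, which encodes Helios, stood on the other side. *Ikzf2* was at 10.2 and 10.8 FPKM in shNC, against 18.2 and 18.5 FPKM in shNAT10, with a log2 fold change of 0.80 (standard error 0.09, limma adjusted p = 0.061). It was past the threshold in all 14 alternatives. *Ikzf2* was thus above *Ikzf1* in every library, whereas *Ikzf3* was at 0 in 3 libraries and at 0.010 FPKM in shNC-2.

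*Sox6* (chr7:115470872-116038796, minus strand) showed the lowest log2 fold change of the 10. It was at 2.45 and 2.46 FPKM in shNC, against 1.31 and 1.08 FPKM in shNAT10, from 426 and 433 against 244 and 245 fragments. The shNC libraries were nearly equal and both shNAT10 libraries were far below them. The log2 fold change was -0.99 (standard error 0.19), from -1.12 to -0.86 when 1 library was left out, and -0.66 with a pseudocount of 1.

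The study also lists a pair of qPCR primers for *Sox6*, shown here because they mark where another readout of this gene would fall. Both matched inside 1 exon, coding in most of the transcripts concerned, at chr7:115544516-115544600, an amplicon of 85 bases that is present in 11 of the 16 *Sox6* transcripts of GENCODE M21. The primer listed as F reads against the gene and the one listed as R along it.
Sox6 F: gctgcttttgtttggcaggt
Sox6 R: gcctgtgaagtccccaacat

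Of 6 genes that SOX6 is known for in cartilage, 3 passed the filter and 0 were called by limma or reached an unadjusted p under 0.05, whereas limma-voom called 1 higher and 1 lower. *Sox5*, the usual partner of *Sox6*, was under 1 FPKM in every library, and *Acan*, the cartilage proteoglycan, was at 0 in all libraries. *Col11a2* was at 1.16 and 1.18 FPKM in shNC, against 0.676 and 0.859 in shNAT10, and *Sox9* was at 1.30 and 1.49 FPKM in shNC, against 2.99 and 1.73 in shNAT10. Limma called neither, whereas *Col11a2* was called lower by limma-voom and by limma without the trend, and *Sox9* was called higher by limma-voom and by limma without shNAT10-2. The FPKM of *Col11a2* did not return whole fragments, so its limma-voom call rests on rounded values. Among other SOX genes listed as relatives, *Sox4* rose from 12.9 and 9.59 FPKM in shNC to 18.1 and 17.0 in shNAT10 (log2 fold change 0.65, limma adjusted p = 0.188).

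Across 10 lists of partners, relatives, lineage genes and the *Sox6* cartilage genes, 96 of 146 listed genes were tested. By limma 14 (14.6%) were called higher and 20 (20.8%) lower, against 8.41% and 7.83% of all genes, and 1 of them had an adjusted p under 0.05. The median log2 fold change was 0.02 for the listed genes. The lists were drawn up with earlier results of these data known, so the shares are a description. With 1 library left out, the calls ranged from 5 to 19 higher and from 9 to 15 lower, with 5 and 9 without shNAT10-1 and 7 and 12 without shNAT10-2.

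**Figure D4:**
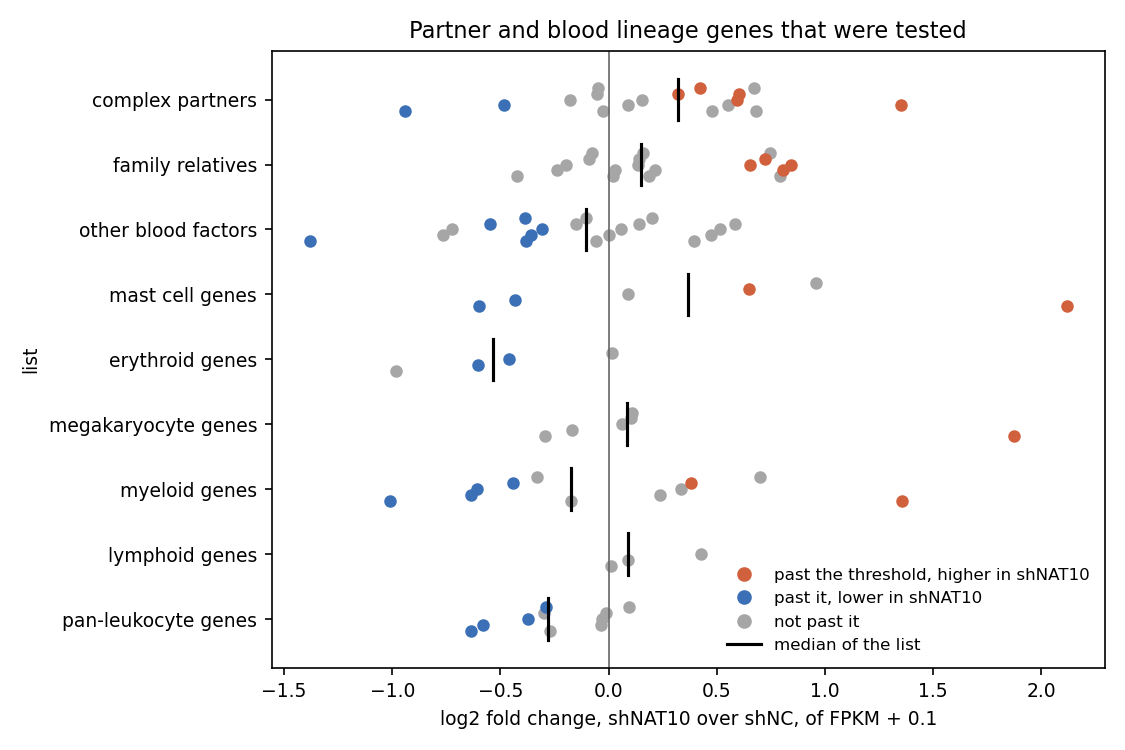
Log2 fold change of FPKM + 0.1, shNAT10 over shNC, of the genes tested in 9 lists of partners, relatives and blood lineage genes; each point is a gene (orange called higher, blue called lower, grey not called) and black bars are list medians. Calls in the relatives list are all higher (4 of 18), and calls among other blood factors (6 of 19), erythroid (2 of 4) and pan-leukocyte genes (4 of 10) are all lower.

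Other blood transcription factors were called in 1 direction, with 0 of 19 tested higher and 6 lower by limma, where 0 also rose at an unadjusted p under 0.05 and limma-voom called 2 higher and 6 lower. *Klf2*, a factor of quiescence and vessel flow response, fell from 2.17 and 2.14 FPKM in shNC to 0.690 and 0.848 FPKM in shNAT10 (log2 fold change -1.38, limma adjusted p = 0.089). *Cebpb*, the most abundant of the list, fell from 85.0 and 76.4 to 65.5 and 64.8 FPKM (-0.31, limma adjusted p = 0.227). *Mitf*, which cooperates with GATA2 in mast cells, fell from 9.37 and 8.81 to 7.41 and 6.46 FPKM (-0.39, limma adjusted p = 0.239). *Stat5a* (-0.55) and *Gfi1* (-0.38) were also called lower. *Nfe2*, a factor of megakaryocytes and red cells, had a log2 fold change of 0.40 without a call by limma, but was called higher by limma-voom and by limma without shNC-1. *Irf8*, a myeloid factor, was above 0 in 1 library only, at 0.009 FPKM, and *Bcl11b* and *Hoxa9* were at 0.

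Mast cell genes, many of them known to depend on GATA2, were called in both directions, 2 higher and 2 lower of 6 tested. *Kit*, the stem cell factor receptor, fell from 24.5 and 21.2 FPKM in shNC to 14.5 and 15.6 FPKM in shNAT10 (log2 fold change -0.60, limma adjusted p = 0.123). *Ms4a2*, a chain of the IgE receptor, rose from 0.938 and 0.539 to 3.77 and 3.13 FPKM (2.12, limma adjusted p = 0.084), and *Il1rl1*, the interleukin 33 receptor, from 101 and 90.9 to 146 and 155 FPKM (0.65, limma adjusted p = 0.089). *Srgn*, the granule proteoglycan, fell by 0.43 on the log2 scale, and *Cpa3* was at 245 to 272 FPKM without a call.

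Globin and other red cell genes were low or at 0, although 2 receptor genes of the list were well expressed. *Alas2*, the first enzyme of red cell heme synthesis, was at 0.779 and 0.946 FPKM in shNC, against 0.729 and 1.03 in shNAT10, with overlapping groups and no call. *Hba-a2*, *Hbb-bt*, *Hbb-bs*, *Slc4a1* and *Hemgn* were at 0 in all libraries, and *Hba-a1* was above 0 in shNC-2 alone. *Tfrc*, the transferrin receptor of dividing cells in general, fell from 143 and 156 FPKM in shNC to 98.7 and 98.0 FPKM in shNAT10 (log2 fold change -0.60, limma adjusted p = 0.084). *Epor*, the erythropoietin receptor and a GATA1 target, fell from 10.2 and 11.4 to 7.53 and 8.07 FPKM (-0.46, limma adjusted p = 0.178).

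Of the megakaryocyte genes, 1 of 6 tested was called by limma, and as higher, while limma-voom called 1 higher and 1 lower. *Pf4*, platelet factor 4, rose from 0.472 and 1.05 FPKM in shNC to 2.76 and 2.99 FPKM in shNAT10 (log2 fold change 1.87, limma adjusted p = 0.134). *Itga2b*, the platelet integrin and a target of GATA and FLI1 proteins, was at 29.6 to 34.5 FPKM with overlapping groups. *Itgb3*, the other chain of that integrin, was at 6.93 and 6.40 FPKM in shNC, against 5.20 and 5.62 in shNAT10, and was called lower by limma-voom and by limma without the filter on low values, but not with the filter. *Ppbp*, a platelet chemokine, was at 2.02 to 3.53 FPKM with overlapping groups, and *Gp6* was at 0.

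Myeloid genes gave 2 calls higher and 4 lower of 11 tested. *Fcer1g*, the shared signalling chain of Fc receptors, fell from 43.4 and 47.8 FPKM in shNC to 21.9 and 23.4 FPKM in shNAT10 (log2 fold change -1.01, limma adjusted p = 0.049). *Fcgr3* (-0.63), *Csf2ra* (-0.61) and *Tyrobp* (-0.44) were also lower, and *Csf2rb* (0.38) was higher. The other gene called higher was *Lyz2*, the lysozyme of macrophages and granulocytes, at 0.384 to 1.54 FPKM. Of the lymphoid genes, 0 of 3 tested were called by limma, 0 reached an unadjusted p under 0.05 and 0 were called by limma-voom, and their summed level stayed between 0.751 and 1.05 FPKM. The 3 were *Il7r*, the interleukin 7 receptor, at 0.383 to 0.596 FPKM, *Cd79a* of B cells at 0.0895 to 0.219 and *Dntt* at 0.0396 to 0.150, which was called higher without shNC-1. *Cd53* (-0.58), *Laptm5* (-0.64), *Lcp1* (-0.37) and *Lcp2* (-0.29) were the 4 pan-leukocyte genes called lower, of 10 tested. *Arhgdib* was at 95.8 and 115 FPKM in shNC, against 87.4 and 86.6 in shNAT10, and was called lower by limma-voom and by limma without shNC-1, but not by limma with all libraries.

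Of 35 genes named by rule outside the 10 factors and called, *Nat10* among them, 9 passed the threshold in every alternative, namely *Lyl1*, *Ikzf2*, *Klf2*, *Stat5a*, *Il1rl1*, *Tfrc*, *Fcer1g*, *Fcgr3* and the fibroblast marker *Thy1*. Each of the others lost its call when at least 1 library was left out, and the sign changed for 0 of the 35. Calls of *Ssbp4*, *Id2*, *Id3*, *Mybl1*, *Mybl2*, *Sox4*, *Lmo4*, *Epor*, *Pf4*, *Csf2rb*, *Pdgfra* and *Nat10* were lost without either shNAT10 library, and the call of *Id1* without either shNC library. *Kit*, *Ms4a2*, *Cd53* and *Lcp1* lost theirs without shNAT10-1 and *Tyrobp* without shNAT10-2. *Ldb1* and *Srgn* lost theirs without shNC-2 or either shNAT10 library, *Cebpb* and *Laptm5* without shNC-1 or either shNAT10 library, *Mitf* and *Lcp2* without shNAT10-2 or either shNC library, *Gfi1* without shNAT10-1 or either shNC library, and *Csf2ra* whichever library was left out.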

How the data were processed

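Long RNA-seq of 2 shNC and 2 shNAT10 libraries was analysed, grouped by their titles; the study calls them biological replicates, the labels name no separate cultures, and p-values measure only the spread between these samples. The authors deposited FPKM for 53465 genes, made from reads aligned with HISAT2 to mm10; the paper describes rRNA depletion and the labels an mRNA kit. A second deposited table with fold changes and p-values of the authors' own comparison was not used.

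Genes averaging at least 0.1 FPKM (20116) were put on the log2(FPKM + 0.1) scale and tested with limma 3.58.1 (lmFit, eBayes with trend, R 4.3.3), two-sided, without a replicate term; fold changes of low genes are understated on this scale. The threshold was a fold over 1.2 with p of at most 0.05, with Benjamini-Hochberg adjustment beside it. An exact permutation test of 2 against 2 cannot go below p = 0.333. Fragments were recovered from FPKM and GENCODE M21 exon lengths; 96.0% to 96.6% of values under 50 fragments lay within 0.02 of a whole number. Values that were not whole were rounded for limma-voom. Intervals and floors of 3 fragments cover counting error only. The fit was also run on simulated counts with known changes, and as the outcome is not given here, nothing rests on it.

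The members and lists were chosen with earlier results of these data known. By rule, the text names all 10 factors, *Nat10* and, per list, called genes with a mean of at least 1 FPKM (up to 4 per direction) and the 3 most abundant; other list genes, among them close relatives and genes at 0, were named after their values were seen. The 14 alternatives changed the pseudocount, filter, scaling or test, added a replicate block, or left out a library.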

Additional observations from a re-analysis of the deposited data

How the results depend on the processing

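Against 2 of the 10 factors past the threshold as higher and 4 as lower, 1 was higher under limma-voom, a mean of at least 1 FPKM, no filter on low values, quantile normalization and the replicate block, and 1 was lower under limma without the trend and under the same FPKM total without rRNA-related loci. Of the genes of the 10 lists (those of *Sox6* in cartilage included), against 14 higher and 20 lower, 23 were higher under limma-voom and 12 lower under limma without the trend. With 1 library left out, where the lone library of a group is assumed to vary like the other group, factors numbered 0 to 1 higher and 1 to 3 lower, their median log2 fold change ran from -0.28 to 0.039, genes of these lists numbered 5 to 19 higher and 9 to 15 lower, and all genes 1108 to 1734 higher and 899 to 1659 lower. The causes were not tested. Same-numbered libraries showed no shared deviation over all genes tested (correlation 0.00711), but this cannot tell whether they were prepared as pairs. With the replicate block 1587 genes were higher and 1527 lower, against 1691 and 1576. Genes with an adjusted p under 0.05 numbered 67 higher and 21 lower by limma, 849 and 733 by limma-voom, and 0 under limma without the trend, either other pseudocount, no filter, the block, or any library left out. Over the alternatives, the 10 factors lost a call 25 times and gained 1 once in 139 values. Of these values, 133 moved by less than the replicate spread and 6 by more. Leaving out a library cannot move a value beyond this spread, and changing only the filter, the trend or the replicate block leaves it unchanged. The count of 133 is therefore no measure of stability. Of the values of named genes outside the factors, 690 kept their side of the threshold, 75 lost and 24 gained a call, and 0 called values changed sign. *Gata1* has no value at a mean of at least 1 FPKM, where the filter removes it. With 2 libraries per group, genes such as *Gata1* with 10 to 26 fragments limit what the depth can show.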
